A study of Homo sapiens with 9 samples.

Results

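The genes described here encode the subunits of the proteasome and the factors that assemble it. They were taken from the count table by symbol: every gene named PSMA, PSMB, PSMC, PSMD, PSME, PSMF or PSMG followed by a number, together with POMP, and without PSMB8 and PSMB9. This gave 47 of the 20463 annotated genes of the table. PSMA8, a testis form of an alpha subunit, and PSMB11, a thymus form of a catalytic subunit, had a count of 0 in all 9 libraries. The other 45 members passed the filter on low counts and were tested among 13968 genes.

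The proteasome degrades proteins that carry chains of ubiquitin. Its core particle is a barrel of stacked rings: the outer alpha rings form the gate and the inner beta rings hold the active sites, carried by PSMB5, PSMB6 and PSMB7. The regulatory particle caps the barrel. Its ATPases (PSMC genes) unfold and feed in the substrate, and its non-ATPase subunits (PSMD genes) bind and remove ubiquitin. Assembly factors (PSMG genes, POMP and several PSMD genes) guide the subunits together, and activators (PSME genes) can replace the regulatory particle. In many cells the transcription factor NRF1, encoded by NFE2L1, raises proteasome genes when the proteasome is impaired, by binding antioxidant response elements in their promoters.

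The libraries came from A375, an established human melanoma line. Control cells were left untreated. The treated cells received Salvianolic Acid B (SalB), a phenolic acid found in red sage root, for 48 h, at a dose of 100 µM in one group and 200 µM in another. All 3 groups held 3 libraries of polyadenylated RNA. They are named as biological replicates, but nothing says that they came from separate cultures, so p-values measure the spread between these libraries. No vehicle is named for the controls. The comparisons ask how the RNA level of proteasome genes differed between each dose and no treatment, and between the doses.

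Depth ranged from 27348621 to 30629685 counts per library. The summed level of 8 melanocyte lineage markers was 396 to 431 CPM (counts per 1000000 of the scaled library) in control, 606 to 615 at 100 µM and 451 to 600 at 200 µM. SOX10 carried most of this sum and was called higher at both doses, while MITF was called lower at both (-0.70, edgeR adjusted p = 0.0071, and -0.52, adjusted p = 0.026) and S100B higher at 100 µM (0.58, adjusted p = 0.0021) but lower at 200 µM (-1.12, adjusted p = 5.7e-05). Of the pigment genes, PMEL, MLANA and TYR were below 1 CPM in every library. DCT lay between 0.169 and 1.31 CPM and was called higher at 200 µM (1.90, edgeR adjusted p = 0.021). TYRP1 lay between 0.422 and 1.55 CPM and was not called at either dose against control. Leukocyte markers summed to at most 1.45 CPM, epithelial markers to at most 0.583 CPM and endothelial markers to at most 3.31 CPM. Fibroblast markers summed to 27.6 to 30.4 CPM in control, 59.8 to 64.3 CPM at 100 µM and 29.9 to 35.1 CPM at 200 µM. The part of these marker changes in the proteasome results was not tested. The 200 µM replicate 3 library stood apart from the other 200 µM libraries: 13 mitochondrial mRNAs took 4.69% of its counts, against 1.85% and 1.81%. That share was 2.09% to 2.29% in control and 2.83% to 3.11% at 100 µM.

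Promoter windows from RefSeq (GRCh38.p14), running from 250 bases before to 50 bases after a transcript start, were matched by symbol for 41 of the members, which had 49 windows. They were searched on both strands for TGACNNNGC, a core of the antioxidant response element, and for the CCAAT box, and these motifs share no required stretch. TGACNNNGC was found in 28.6% of the members' windows and in 13.3% of all 35116 windows. CCAAT was found in 38.8% of the members' windows and in 34.6% of all windows. A match is a description of letters and not a measured binding site. The sequence upstream of PSMB3 is shown because this member changed most. It holds 3 matches in 250 bases at chr17:38752491-38752740 on the plus strand, 1 of TGACNNNGC and 2 of CCAAT, all in capitals.
PSMB3: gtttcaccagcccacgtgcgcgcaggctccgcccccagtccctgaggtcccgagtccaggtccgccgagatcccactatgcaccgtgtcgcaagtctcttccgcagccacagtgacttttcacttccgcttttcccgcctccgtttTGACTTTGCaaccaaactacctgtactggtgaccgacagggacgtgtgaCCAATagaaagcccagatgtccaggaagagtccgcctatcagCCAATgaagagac

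Shorter stretches around the TGACNNNGC match are shown for 4 other members that carry it, to set beside their values: PSMD3 and PSME4, which were each called higher at a dose, and PSMA4 and PSMC5, which were called lower at 200 µM. Each is written 5′ to 3′ along the gene, with the match in capitals, read as GCNNNGTCA where it lies on the other strand. They lie at chr17:39980754-39980794 (PSMD3, plus), chr2:53971003-53971043 (PSME4, minus), chr15:78540644-78540684 (PSMA4, plus) and chr17:63827648-63827688 (PSMC5, plus).
PSMD3: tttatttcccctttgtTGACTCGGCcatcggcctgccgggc
PSME4: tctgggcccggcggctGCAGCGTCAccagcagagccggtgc
PSMA4: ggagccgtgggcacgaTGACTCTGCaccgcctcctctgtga
PSMC5: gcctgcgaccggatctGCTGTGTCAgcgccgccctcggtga

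Members with the motif were found among those called in either direction. Of the 14 tested members with TGACNNNGC in a window, 1 was called higher and 1 lower at 100 µM, and 1 higher and 4 lower at 200 µM. Of the 25 with a window and no match, 2 were called higher and 8 lower at 100 µM, and 2 higher and 11 lower at 200 µM. Over all genes tested 37.1% were called at 100 µM and 37.3% at 200 µM, by the test described below for the members. The difference between the sets with and without the motif was not tested.

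Most proteasome genes had slightly lower fitted levels in treated than in control cells, 33 of the 45 tested at 100 µM and 35 at 200 µM. After a GC and length correction the tally at 100 µM turned, with 31 members higher and 14 lower and a median log2 fold change of 0.10, and at 200 µM 32 of the 45 were lower. With a GC correction alone 27 were lower at 100 µM, with a median of -0.07. These corrections were fitted over all libraries, treated ones included, so they would also remove a change with dose that follows GC content or length. All 47 members together summed to 9526 ± 65.8 CPM (SD, n = 3) in control, 8599 ± 101 CPM at 100 µM and 8055 ± 321 CPM at 200 µM, which is 90.3% and 84.6% of the control sum. This fall in the sum was uneven between roles. The alpha ring stood at 81.2% and 71.8% of its control sum, the non-ATPase subunits at 101% and 99.1%, and the activators with the inhibitor PSMF1 at 111% and 106%. Per transcript length the activators with PSMF1 stood at 119% and 95.3%, so their side of control at 200 µM depended on the unit. Fewer cells of a kind and less RNA per cell cannot be told apart in such bulk samples.

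A member was called when the edgeR quasi-likelihood test gave a Benjamini-Hochberg adjusted p below 0.05 over all genes tested. At 100 µM, 3 members were called higher and 11 lower than in control, 31.1% of the 45. Among all genes tested 37.1% were called, 18.9% higher and 18.2% lower, so the share of members called was below the background in this fit. It was above it in others: 73.3% against 56.1% without 200 µM replicate 3, 75.6% against 61.2% with only the 2 groups compared, and 37.8% against 32.8% after a GC and length correction. The difference from the background was not tested. The median log2 fold change of the members was -0.18, against -0.01 over all genes. The split between directions depended on the scaling and correction: it was 6 higher and 9 lower with total counts (36.4% of all genes called), 7 and 10 after a GC correction (38.9%), and 12 and 5 after a GC and length correction (32.8%). The number called lower was 6 without 100 µM replicate 2 (11.4% of all genes called lower) and 7 without 100 µM replicate 3 (12.4%). Leaving out 200 µM replicate 3, which enters through the shared estimate of the spread, gave 11 members higher and 22 lower, with 56.1% of all genes called. Leaving out 200 µM replicate 2 gave 5 members higher (21.5% of all genes called higher).

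At 200 µM, 3 members were called higher and 17 lower than in control, 44.4% of the 45. Among all genes 37.3% were called, 19.8% higher and 17.5% lower. The members' share was below the background in other fits: 22.2% against 28.4% with only the 2 groups compared, and 33.3% against 45.9% after a GC and length correction. It was 22.2% against 26.2% without control replicate 1 and 24.4% against 26.6% without control replicate 2. The difference in share was not tested. The members' median log2 fold change was -0.25, against 0.00 over all genes, and 35 of the 45 had a negative value. After a GC and length correction, which called 45.9% of all genes, the split was 4 higher and 11 lower. The number called lower was 8 without control replicate 1 (11.9% of all genes called lower), 10 without control replicate 2 (12.2%), and 22 without 200 µM replicate 3 (25.9%). Only 1 was called higher without control replicate 2 (14.4% of all genes called higher), but 6 without 200 µM replicate 3 (27.9%), where 53.8% of all genes were called.

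**Figure D1:**
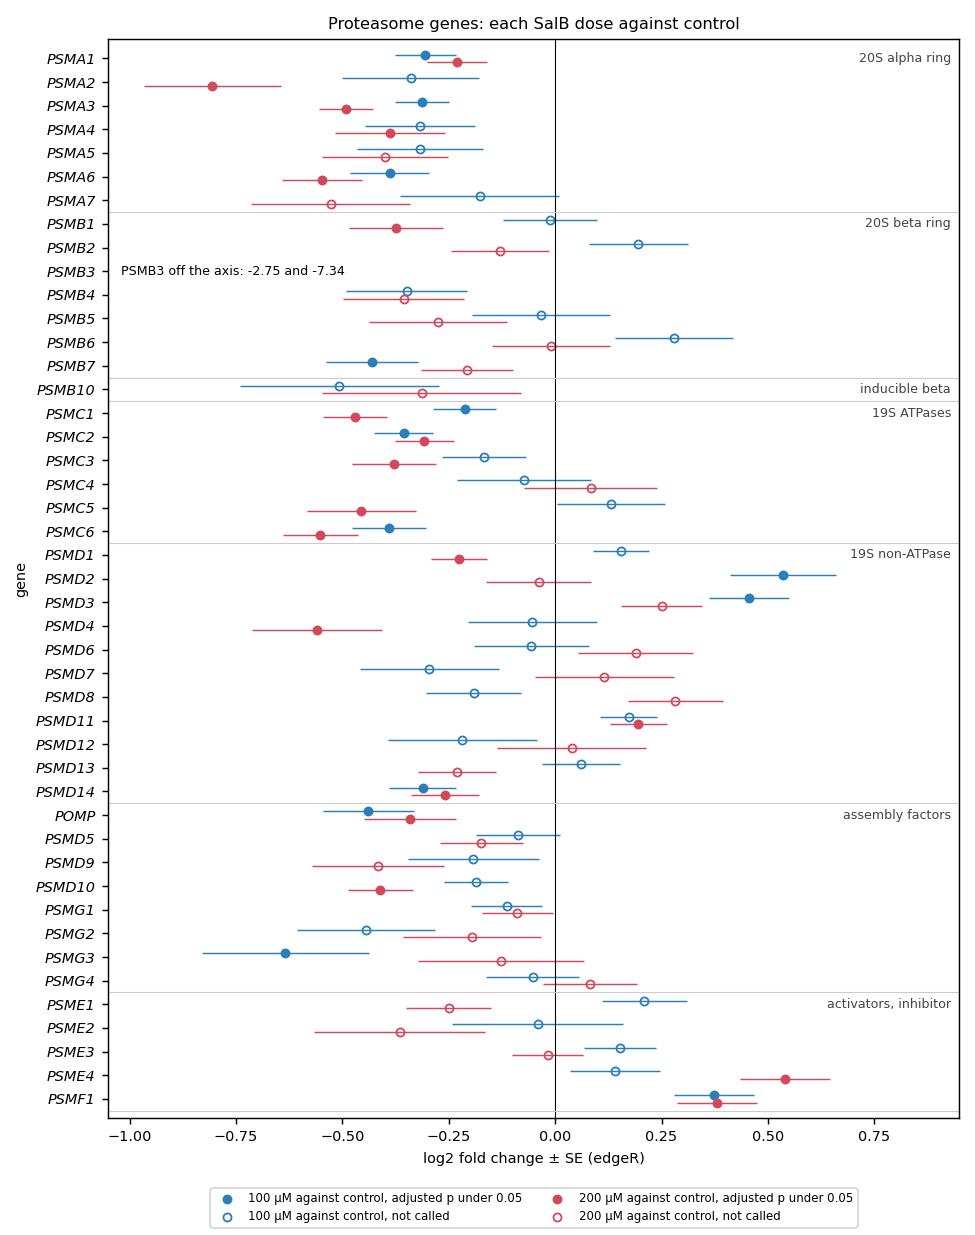
Log2 fold change of each tested member at 100 µM (blue) and 200 µM (red) against control on the x axis, with bars of 1 standard error, and the members in rows by role. Filled points passed the adjusted p threshold of 0.05; PSMB3, at -2.75 and -7.34, lies beyond the axis, and most points of the alpha ring and the ATPases lie left of 0.

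PSMB3 encodes the beta3 subunit, which has no active site of its own but shares the inner ring with the catalytic subunits. The gene (ENSG00000277791) lies on chromosome 17 from 38752736 to 38764231 on the plus strand of GRCh38, and its main transcript has 6 exons. Control libraries had 941, 2035 and 1811 reads, the 100 µM libraries 96, 98 and 557, and the 200 µM libraries 7, 15 and 5. The groups did not overlap. Within their groups, control replicate 1 was clearly low and 100 µM replicate 3 clearly high. At 200 µM replicate 2 was the highest, but these counts are near the floor.

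Scaled to library size, PSMB3 stood at 32.6, 70.1 and 61.1 CPM in control, at 3.08, 3.18 and 18.1 CPM at 100 µM, and at 0.254, 0.534 and 0.199 CPM at 200 µM. The means were 54.6 ± 19.6, 8.11 ± 8.62 and 0.329 ± 0.18 CPM (SD, n = 3), so the mean was 6.74-fold lower at 100 µM and 166-fold lower at 200 µM. The log2 fold change was -2.75 ± 0.66 (SE, edgeR adjusted p = 0.011) at 100 µM and -7.34 ± 0.92 (adjusted p = 0.00039) at 200 µM. Between the doses it was -4.59 ± 0.91 (adjusted p = 0.0035). Without 100 µM replicate 3 the value at 100 µM was -4.10 and that between the doses -3.23. The call at 100 µM was lost when only the 2 groups compared were fitted (adjusted p = 0.052), and the call between the doses without 200 µM replicate 3 (adjusted p = 0.057).

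The spread of PSMB3 among untreated libraries set it apart from the other members. The SD of its log2 CPM over the 3 control libraries was 0.589, against 0.0051 to 0.131, with a median of 0.045, in the other 44 tested members. Of 4754 genes whose mean control level lay within 1 log2 unit of that of PSMB3, 13 had an SD at least as large. This variation was named when the gene set was chosen and is given as a description. RefSeq lists 2 PSMB3 pseudogenes, on chromosomes 12 and 2, and 53 pseudogenes for 22 of the members, so reads that fit a copy as well may be missing from or added to these counts.

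Genes beside PSMB3 on chromosome 17 were looked at for the same pattern. CISD3, MLLT6, PIP4K2B and CWC25 were not called at either dose against control. PCGF2, a Polycomb component that lies upstream on the other strand, had 35, 30 and 42 reads in control, 530, 44 and 128 at 100 µM, and 12, 14 and 23 at 200 µM. It was high in 100 µM replicate 1 above all, whereas PSMB3 in the 100 µM group was high in replicate 3. PCGF2 was called higher at 100 µM (2.62, edgeR adjusted p = 0.025) and lower from 100 µM to 200 µM (-3.61, adjusted p = 0.0066), where PIP4K2B was also called lower (-0.42, adjusted p = 0.029). In the authors' deposited table of 100 selected features, read as FPKM, PSMB3 was the only member listed. It stood there at 38.1, 83.8 and 73.1 in control, 3.77, 3.92 and 22.6 at 100 µM, and 0.264, 0.617 and 0.187 at 200 µM.

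The other genes of the standard beta ring moved far less. Per transcript length, PSMB3 had the lowest control mean of the 7, at 151 ± 55.6 TPM (a share of transcripts scaled to length; SD, n = 3). The others had mean control levels of 174 TPM (PSMB2) to 1420 TPM (PSMB4), and the PSMB2 libraries lay within the range of PSMB3. The PSMB3 level was 24.5 ± 26.2 TPM at 100 µM and 0.912 ± 0.518 TPM at 200 µM. In this ring 2 of 7 genes were called lower and none higher at each dose, PSMB3 with PSMB7 at 100 µM and PSMB3 with PSMB1 at 200 µM. Of all genes, 18.2% were called lower at 100 µM and 17.5% at 200 µM. At 100 µM 1 was called lower without 100 µM replicate 2 or 3 (11.4% and 12.4% of all genes). At 200 µM 1 was called lower without any 1 control library (11.9% to 12.8%) and 5 without 200 µM replicate 2 (17.6%). In the fit without 200 µM replicate 3, 2 were called higher at 100 µM and 1 at 200 µM (28.7% and 27.9% of all genes). After a GC correction 1 was called higher and 3 lower at 100 µM (19.9% and 19% of all genes), and 5 lower at 200 µM (23%). A GC and length correction gave 3 higher and 1 lower at 100 µM (16.2% and 16.5%), and 1 lower at 200 µM (22.3%).

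**Figure D2:**
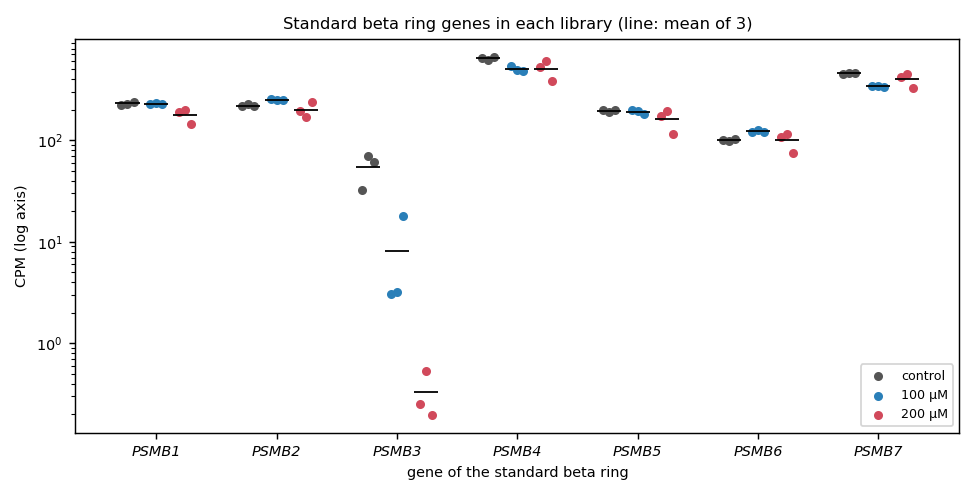
CPM on a log axis of the 7 standard beta ring genes in each library, with control in grey, 100 µM in blue and 200 µM in red, and a line at each mean of 3 libraries. PSMB3 falls from a control mean of 54.6 to 8.11 and 0.329 CPM, while the points of the other genes stay between 75.6 and 656 CPM.

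PSMB5 carries the chymotrypsin-like site, the main target of proteasome inhibitor drugs. It had 198, 189 and 200 CPM in control, 199, 193 and 181 CPM at 100 µM, and 174, 196 and 116 CPM at 200 µM. The groups overlapped, with 200 µM replicate 3 the lowest library, and neither difference from control was called (-0.03 ± 0.16, edgeR adjusted p = 0.89, and -0.28 ± 0.16, adjusted p = 0.22).

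PSMB6 carries the caspase-like site. Its level was 101, 98.4 and 102 CPM in control, 120, 125 and 121 CPM at 100 µM, and 108, 116 and 75.6 CPM at 200 µM. The 100 µM libraries were all above control and the 200 µM libraries lay on both sides of it, but neither difference was called (0.28 ± 0.14, edgeR adjusted p = 0.14, and -0.01 ± 0.14, adjusted p = 0.96). Without 200 µM replicate 3 the value at 200 µM was 0.17 (edgeR adjusted p = 0.034). The test at 100 µM used an estimate of the spread shared by all groups. The SD of log2 CPM of PSMB6 was 0.027 in control, 0.031 at 100 µM and 0.33 at 200 µM.

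PSMB7 carries the trypsin-like site. It had 454, 458 and 462 CPM in control, 342, 341 and 337 CPM at 100 µM, and 418, 448 and 324 CPM at 200 µM. Every treated library was below every control library. PSMB7 fell by 0.43 ± 0.11 on the log2 scale at 100 µM (edgeR adjusted p = 0.013), a call lost without 100 µM replicate 2 (adjusted p = 0.058) or replicate 3 (adjusted p = 0.059), and the value at 200 µM was not called (-0.21 ± 0.11, adjusted p = 0.16).

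PSMB10 is the inducible counterpart of PSMB7 in immunoproteasomes. It had 21.5, 19.3 and 23.1 CPM in control, 14.6, 13.6 and 16.7 CPM at 100 µM, and 19, 21.9 and 10.4 CPM at 200 µM. The 100 µM libraries were all below control, the 200 µM libraries overlapped it, and neither difference was called (-0.51 ± 0.23, edgeR adjusted p = 0.12, and -0.31 ± 0.23, adjusted p = 0.33). After a GC correction PSMB10 was called lower at both doses (-0.82, adjusted p = 0.0014, and -0.50, adjusted p = 0.015), and after a GC and length correction at 100 µM (-0.55, adjusted p = 0.013). Its exons overlap AC040162.1 over 34.8% of their length, so its reads are uncertain. The other inducible subunits, PSMB8 and PSMB9, were at 0.556 to 1.57 CPM and 0.635 to 0.941 CPM over the 9 libraries, and neither was called in any comparison (edgeR adjusted p = 0.65 to 0.97).

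At 200 µM the alpha ring had the lowest summed level relative to control of all roles. Of its 7 tested genes, 3 were called lower at 100 µM (PSMA1, PSMA3 and PSMA6) and 5 at 200 µM (these and PSMA2 and PSMA4), with none higher. Of all genes, 18.2% and 17.5% were called lower. All 7 had negative log2 fold changes at both doses, from -0.39 to -0.18 at 100 µM and from -0.81 to -0.23 at 200 µM. The direction at 100 µM depended on the correction: after a GC and length correction all but PSMA4 turned positive, the median was 0.09, PSMA3 was called higher (0.36, edgeR adjusted p = 0.0098) and no gene was called lower. Of all genes, the GC and length correction called 16.2% higher and 16.5% lower at 100 µM. The GC correction alone left 1 called lower at 100 µM (19% of all genes). All 7 were called lower at 100 µM once 200 µM replicate 3 was left out, where calls rose over all genes too, to 56.1% called and 27.5% called lower. At 200 µM 3 were called lower without 100 µM replicate 2, 200 µM replicate 1 or control replicate 1 or 2 (11.9% to 14.8% of all genes), and 2 after a GC and length correction (22.3%).

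PSMA2, the alpha2 subunit, had 383, 370 and 355 CPM in control, 254, 316 and 306 CPM at 100 µM, and 224, 254 and 157 CPM at 200 µM. Treated libraries all lay below control, and 200 µM replicate 3 was the lowest. At 100 µM PSMA2, like the rest of its ring, was called lower once that library was left out. At 200 µM it fell by 0.81 ± 0.16 on the log2 scale (edgeR adjusted p = 0.0043), which was not called after a GC correction (-0.57, adjusted p = 0.075), and at 100 µM the value was -0.34 ± 0.16 (adjusted p = 0.13). Its exons overlap AC010132.2 on the other strand over 34.6% of their length, and no source used here says whether the counting used strand.

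PSMA6, the alpha1 subunit, had 232, 244 and 250 CPM in control, 194, 172 and 188 CPM at 100 µM, and 179, 172 and 145 CPM at 200 µM. Control was above both doses without overlap, and the doses overlapped each other. PSMA6 fell by 0.39 ± 0.09 on the log2 scale at 100 µM (edgeR adjusted p = 0.011) and by 0.55 ± 0.09 at 200 µM (adjusted p = 0.0019). The call at 100 µM was lost without 100 µM replicate 2 (adjusted p = 0.064) and after a GC correction (adjusted p = 0.084), and that at 200 µM after a GC and length correction (-0.24, adjusted p = 0.12). An overlap with AL121594.1 covers 14.1% of its exons.

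The ATPases of the regulatory particle had no member called higher in the reported fit. Of 6 genes, 3 were called lower at 100 µM (PSMC1, PSMC2 and PSMC6) and 5 at 200 µM (all but PSMC4), with none higher. Of all genes, 18.2% and 17.5% were called lower. Without control replicate 1, 3 were called lower at 200 µM (11.9% of all genes), and without 200 µM replicate 3, 1 was called higher at 100 µM (28.7%). A GC and length correction turned the median at 100 µM to 0.02, with 1 called higher (PSMC5) and 2 lower (PSMC1 and PSMC3), and left 3 called lower at 200 µM. It called 16.2% of all genes higher and 16.5% lower at 100 µM, and 22.3% lower at 200 µM. With the GC correction alone PSMC1 and PSMC3 were called lower at 100 µM (19% of all genes), and these and PSMC5 at 200 µM (23%). PSMC6, a subunit of the ATPase ring, had 167, 174 and 169 CPM in control, 127, 133 and 129 CPM at 100 µM, and 128, 118 and 102 CPM at 200 µM. No treated library reached the control range. PSMC6 fell by 0.39 ± 0.09 on the log2 scale at 100 µM (edgeR adjusted p = 0.008) and by 0.55 ± 0.09 at 200 µM (adjusted p = 0.0013). Neither call held after a GC correction, where the values were 0.10 (adjusted p = 0.70) and -0.19 (adjusted p = 0.43).

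PSMC5 is given because it had the largest fall between the doses after PSMB3, and it was picked after its values were seen. It had 230, 240 and 233 CPM in control, 263, 257 and 250 CPM at 100 µM, and 186, 194 and 133 CPM at 200 µM. The 100 µM libraries were above control and the 200 µM libraries below it. The difference at 100 µM was not called (0.13 ± 0.13, edgeR adjusted p = 0.45; 0.27, adjusted p = 0.044, after a GC and length correction), the fall at 200 µM against control was 0.46 ± 0.13 on the log2 scale (adjusted p = 0.021), and between the doses it fell by 0.59 ± 0.13 (adjusted p = 0.0054). Leaving out any 1 control library ended the call at 200 µM (adjusted p = 0.054, 0.067 and 0.056). The test at 100 µM shared its estimate of the spread with the 200 µM libraries. The SD of log2 CPM of PSMC5 was 0.032 in control, 0.037 at 100 µM and 0.30 at 200 µM. Its exons overlap FTSJ3 over 19.5% of their length.

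The non-ATPase subunits changed in both directions, and their summed level stayed near control. Of 11 genes, 2 were called higher and 1 lower at 100 µM (18.9% and 18.2% of all genes), and 1 higher and 3 lower at 200 µM (19.8% and 17.5%). Over the 9 fits that each left out 1 library, these counts ranged from 2 to 4 higher and 0 to 3 lower at 100 µM, with the most without 200 µM replicate 3, and from 0 to 3 higher and 0 to 3 lower at 200 µM. In these fits 13% to 28.7% of all genes were called higher and 11.4% to 27.5% lower at 100 µM. The ranges at 200 µM were 14.3% to 27.9% and 11.9% to 25.9%. At 100 µM 4 were called higher and 1 lower after a GC correction, and 3 higher and 0 lower after a GC and length correction, and either correction gave 2 higher and 3 lower at 200 µM. The GC correction called 19.9% of all genes higher and 19% lower at 100 µM, and 24.5% and 23% at 200 µM. With GC and length these shares were 16.2% and 16.5%, and 23.6% and 22.3%. PSMD14, the deubiquitinase that frees substrates from ubiquitin, was called lower at both doses, at -0.31 (edgeR adjusted p = 0.014) and -0.26 (adjusted p = 0.029). PSMD1, a scaffold subunit that overlaps HTR2B over 10.8% of its exons, was called lower at 200 µM, at -0.23 (adjusted p = 0.025).

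PSMD2 is a large scaffold that docks ubiquitin shuttles. It had 213, 208 and 218 CPM in control, 304, 317 and 303 CPM at 100 µM, and 214, 242 and 165 CPM at 200 µM. The 100 µM libraries were above all others, and the 200 µM libraries lay on both sides of control. PSMD2 rose by 0.54 ± 0.12 on the log2 scale at 100 µM (edgeR adjusted p = 0.0091), was not called at 200 µM against control (-0.04 ± 0.12, adjusted p = 0.83), and fell by 0.57 ± 0.12 from 100 µM to 200 µM (adjusted p = 0.0051).

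PSMD3, a subunit of the lid, had 148, 141 and 151 CPM in control, 214, 196 and 193 CPM at 100 µM, and 174, 195 and 154 CPM at 200 µM. Every treated library was above control, and the doses overlapped. The rise was 0.46 ± 0.10 on the log2 scale at 100 µM (edgeR adjusted p = 0.0055), and the value at 200 µM was 0.25 ± 0.10 (adjusted p = 0.066).

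PSMD4 is a ubiquitin receptor of the regulatory particle. Its level was 293, 279 and 281 CPM in control, 285, 274 and 263 CPM at 100 µM, and 212, 226 and 141 CPM at 200 µM. Control and 100 µM overlapped, and the 200 µM libraries were below both, replicate 3 most of all. It was not called at 100 µM (-0.05 ± 0.15, edgeR adjusted p = 0.81) and fell by 0.56 ± 0.15 on the log2 scale at 200 µM (adjusted p = 0.018). That call was lost without control replicate 1 (adjusted p = 0.060) and when only the 2 groups compared were fitted (adjusted p = 0.056).

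PSMD11, a lid subunit linked to assembly of the complete particle, had 191, 186 and 183 CPM in control, 209, 211 and 212 CPM at 100 µM, and 226, 201 and 214 CPM at 200 µM. Treated libraries were all above control by a small margin. Its rise at 200 µM was 0.20 ± 0.07 on the log2 scale (edgeR adjusted p = 0.048), a call at the edge of the threshold that was lost in 13 of the 20 alternative settings.

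PSMD8, also of the lid and picked after its values were seen, was the member with the largest called rise between the doses. It had 316, 303 and 315 CPM in control, 293, 266 and 258 CPM at 100 µM, and 338, 348 and 449 CPM at 200 µM. The 200 µM libraries were above control and the 100 µM libraries below it, without overlap. Between the doses it rose by 0.47 ± 0.11 on the log2 scale (edgeR adjusted p = 0.0078), while neither dose was called against control (-0.19, adjusted p = 0.21, and 0.28, adjusted p = 0.075).

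Among the 8 assembly factors, 2 were called lower at each dose (18.2% and 17.5% of all genes) and none higher. These were PSMG3 and POMP at 100 µM and PSMD10 and POMP at 200 µM. The number called lower was 4 at each dose without 200 µM replicate 3 (27.5% and 25.9% of all genes) and 0 or 1 in most other fits that left out 1 library. Those other fits called 11.4% to 20.7% of all genes lower at 100 µM and 11.9% to 17.6% at 200 µM. After a GC and length correction 1 was called higher and 1 lower at 100 µM (16.2% and 16.5% of all genes), and 1 lower at 200 µM (22.3%). POMP, the maturation factor on which beta rings are built, had 314, 323 and 306 CPM in control, 213, 242 and 240 CPM at 100 µM, and 263, 274 and 208 CPM at 200 µM. Every treated library was below control. POMP fell by 0.44 ± 0.11 on the log2 scale at 100 µM (edgeR adjusted p = 0.012) and by 0.34 ± 0.11 at 200 µM (adjusted p = 0.033). The direction turned under a GC correction, with 0.25 and 0.21 after it, and the call at 100 µM was lost without 100 µM replicate 1 (adjusted p = 0.053). The call at 200 µM was lost on leaving out any 1 control library, 100 µM replicate 2 or 3, or 200 µM replicate 1 (adjusted p between 0.055 and 0.10).

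PSMG3, a chaperone of alpha ring assembly, had 74.2, 71.7 and 73.3 CPM in control, 42.8, 50.9 and 47.5 CPM at 100 µM, and 72.2, 83.9 and 44.4 CPM at 200 µM. The 100 µM libraries were all below control, and the 200 µM libraries spread across both groups. The fall at 100 µM was 0.63 ± 0.20 on the log2 scale (edgeR adjusted p = 0.031). It was no longer called on leaving out any 1 control or 100 µM library, or 200 µM replicate 1, with adjusted p between 0.054 and 0.11. At 200 µM the value was -0.13 ± 0.19 (adjusted p = 0.64).

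PSMD9, a chaperone of the ATPase ring, had the largest value of the assembly factors at 200 µM and was not called. It had 59.7, 61.5 and 66.3 CPM in control, 52.6, 59 and 52.4 CPM at 100 µM, and 47.8, 57.1 and 35.5 CPM at 200 µM. Treated libraries were below control without overlap, and the log2 fold changes were -0.19 ± 0.15 (edgeR adjusted p = 0.36) and -0.42 ± 0.15 (adjusted p = 0.061). An overlap with AC069503.2 covers 22.6% of its exons.

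Among the activators and the inhibitor, calls against control in the reported fit were in the higher direction. Of 5 genes, PSMF1 was called higher at 100 µM (18.9% of all genes), and PSMF1 and PSME4 at 200 µM (19.8%). At 100 µM 4 were called higher without 200 µM replicate 3 (28.7%) and 0 without 100 µM replicate 1 (13.3%) or control replicate 2 (13%). At 200 µM 1 was called higher without control replicate 2 (14.4%). After a GC correction 2 were called higher at 100 µM (19.9%), and at 200 µM 2 higher and 2 lower (PSME1 and PSME2; 24.5% and 23%). A GC and length correction gave 3 higher at 100 µM (16.2%), and 2 higher and 1 lower (PSME2) at 200 µM (23.6% and 22.3%). PSME4 encodes PA200, a large nuclear activator that acts without ubiquitin. It had 120, 127 and 116 CPM in control, 135, 132 and 132 CPM at 100 µM, and 162, 159 and 207 CPM at 200 µM. The groups were ordered by dose without overlap, and 200 µM replicate 3 was the highest. The SD of log2 CPM of PSME4 was 0.069 in control, 0.020 at 100 µM and 0.21 at 200 µM, and the test at 100 µM used a shared spread. PSME4 rose by 0.54 ± 0.11 on the log2 scale at 200 µM (edgeR adjusted p = 0.0038) and by 0.40 ± 0.11 between the doses (adjusted p = 0.014; 0.051 without 100 µM replicate 2), and it was not called at 100 µM (0.14 ± 0.11, adjusted p = 0.33).

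PSMF1 encodes PI31, known as an inhibitor of the core particle in the test tube. It had 41.1, 39.3 and 41.8 CPM in control, 54, 52.6 and 51.7 CPM at 100 µM, and 49.1, 50 and 60.1 CPM at 200 µM. All treated libraries were above control. It rose by 0.37 ± 0.09 on the log2 scale at 100 µM (edgeR adjusted p = 0.013) and by 0.38 ± 0.09 at 200 µM (adjusted p = 0.012). Without control replicate 2 neither call held (adjusted p = 0.059 and 0.053), and without 100 µM replicate 1 that at 100 µM did not (adjusted p = 0.051).

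PSME1 and PSME2 form PA28, an activator induced by interferon. PSME1 had 68.5, 68.4 and 70.1 CPM in control, 83.1, 78.2 and 78 CPM at 100 µM, and 63.9, 60.7 and 49.4 CPM at 200 µM. The 100 µM libraries lay above control and the 200 µM libraries below it. The SD of log2 CPM of PSME1 was 0.021 in control, 0.052 at 100 µM and 0.20 at 200 µM, and the test at 100 µM used a shared spread. Neither was called against control (0.21 ± 0.10, edgeR adjusted p = 0.13, and -0.25 ± 0.10, adjusted p = 0.079), and between the doses PSME1 fell by 0.46 ± 0.10 on the log2 scale (adjusted p = 0.0053).

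PSME2 had 83.8, 81.4 and 83 CPM in control, 80, 79.9 and 81.4 CPM at 100 µM, and 77.2, 74.7 and 40.7 CPM at 200 µM. Control and 100 µM met at about 81.4 CPM, and the low mean at 200 µM came mainly from replicate 3. PSME2 was not called at either dose (-0.04 ± 0.20, edgeR adjusted p = 0.89, and -0.37 ± 0.20, adjusted p = 0.19).

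Between the doses, 2 members were called higher and 13 lower at 200 µM than at 100 µM, 33.3% of the 45. Among all genes 44.4% were called, 22.4% higher and 21.9% lower, so this share too was below the background, a difference that was not tested. Besides PSMB3, PSMC5, PSMD2, PSMD4, PSMA2 and PSME1, the members called lower were PSMD1, PSMB1, PSMB2, PSMD13, PSMC1, PSMD10 and PSMA3, at -0.38 to -0.18. The number called lower was 7, 5 and 8 without 100 µM replicates 1, 2 and 3 (17%, 17.3% and 17.9% of all genes), and 8 without control replicate 1 (19.3%). Leaving out 200 µM replicate 3 gave 7 members higher and 15 lower, and 54.2% of all genes were called. The number called higher was 1 without 100 µM replicate 2 (16.7% of all genes) and 4 without 200 µM replicate 2 (25%).

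Much of the spread at the higher dose came from a single library. In 200 µM replicate 3, 28 of the 45 members were lower than in both other 200 µM libraries, 16 were higher and 1 lay between. The same count was not made over all genes, so it is not a trait shown to be particular to the members. Its median log2 ratio to the mean of the other 200 µM libraries was -0.23 over the members and 0.01 over all genes tested. The median SD of log2 CPM at 200 µM was 0.23 over the members other than PSMB3 and 0.27 over all genes, against 0.045 and 0.089 in control. PSMB5, PSMD4, PSMA2 and PSME2 were low in that library, and PSME4 and PSMD8 were high.

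**Figure D3:**
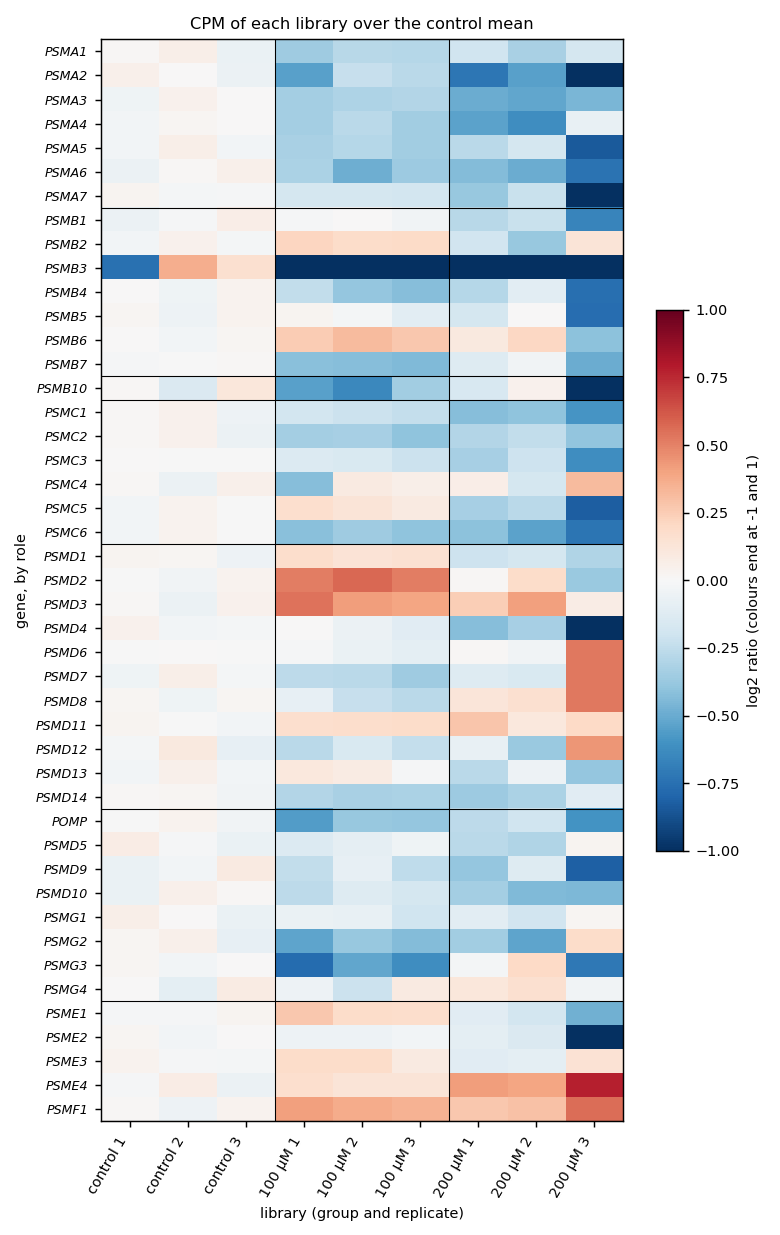
Log2 ratio of each library's CPM to the control mean, in colour from -1 (blue) to 1 (red), with the 45 tested members in rows by role and the 9 libraries in columns. Values outside that range take the end colours. In 200 µM replicate 3, which differs from its group, 28 members were lower than in both other 200 µM libraries, a count not made over all genes.

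The members lie on 18 chromosomes, with 8 on chromosome 14 and 7 on chromosome 17. Their main transcripts had a median GC content of 48.7%, close to the 49.0% of all genes, and a median length of 1579 bases against 3156. Across all genes the log2 fold change at 100 µM was related to GC content (Spearman rho 0.49 over 13874 genes, across genes, which are not independent replicates). Across the 45 members rho was 0.24. At 200 µM rho was 0.22 over all genes and 0.19 over the members. In all, 11 of the tested members overlap another gene over at least 10% of their exons: PSMA1, PSMA2, PSMA6, PSMB10, PSMC1, PSMC5, PSMD1, PSMD7, PSMD9, PSMG2 and PSMG4. PSMC1 shares 75.8% with NRDE2 on the other strand, so its reads are uncertain where the counting did not use strand.

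A list of regulators held genes for NRF1, a related factor, its processing enzymes and its partners and competitors on DNA. These were called mainly lower at 100 µM, where NFE2L1 was called higher, and mainly higher at 200 µM. Of 8 such genes, 1 was called higher and 4 lower at 100 µM, 6 higher and 0 lower at 200 µM, and 6 higher and 0 lower between the doses. Over all genes 18.9% were called higher and 18.2% lower at 100 µM, 19.8% and 17.5% at 200 µM, and 22.4% and 21.9% between the doses. All 8 had positive log2 fold changes at 200 µM. At 100 µM 2 were called lower without 100 µM replicate 3 or control replicate 1 or 3 (11.9% to 13.3% of all genes), and 0 higher without 100 µM replicate 1 (13.3%) or control replicate 2 (13%). NFE2L1, which encodes NRF1, had 230, 220 and 232 CPM in control, 297, 277 and 271 CPM at 100 µM, and 296, 321 and 275 CPM at 200 µM. Both doses were above control and overlapped each other. NFE2L1 rose by 0.31 ± 0.08 on the log2 scale at 100 µM (edgeR adjusted p = 0.013) and by 0.39 ± 0.08 at 200 µM (adjusted p = 0.0043). Leaving out control replicate 2 (adjusted p = 0.060) or 100 µM replicate 1 (adjusted p = 0.058) ended the call at 100 µM, as did a GC correction (adjusted p = 0.095), and a GC and length correction gave -0.05.

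DDI2, the protease that cleaves NRF1 into its active form, had 71.5, 65.8 and 68.5 CPM in control, 62.6, 69.5 and 69.6 CPM at 100 µM, and 93.2, 83.7 and 104 CPM at 200 µM. Control and 100 µM overlapped, and the 200 µM libraries were above both. DDI2 rose by 0.45 ± 0.10 on the log2 scale at 200 µM (edgeR adjusted p = 0.006). An overlap with RSC1A1 covers 15.3% of its exons. NGLY1, which removes sugars from NRF1, fell by 0.30 ± 0.09 at 100 µM (adjusted p = 0.026) and rose by 0.29 ± 0.09 at 200 µM (adjusted p = 0.028). Leaving out any 1 control library ended both calls (adjusted p between 0.066 and 0.093), as did leaving out 100 µM replicate 2 or 3 for the call at 100 µM (0.095 and 0.11).

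Of the partners and competitors of NRF1 on DNA, MAFF, MAFK and BACH1 were called at both doses. MAFG, also a small MAF, and NFE2L2, a related factor, were not called at either dose (-0.37 and 0.38 for MAFG, edgeR adjusted p = 0.22 and 0.20; -0.33 and 0.18 for NFE2L2, adjusted p = 0.20 and 0.48). MAFF, a small MAF partner, had 38.6, 35.2 and 42.4 CPM in control, 17.2, 18.8 and 15.3 CPM at 100 µM, and 80.0, 84.6 and 55.1 CPM at 200 µM, without overlap between groups. It fell by 1.18 ± 0.17 on the log2 scale at 100 µM (edgeR adjusted p = 0.00075) and rose by 0.92 ± 0.16 at 200 µM (adjusted p = 0.0022). MAFK fell by 0.77 ± 0.20 at 100 µM (adjusted p = 0.017) and rose by 1.38 ± 0.20 at 200 µM (adjusted p = 0.00083), and it overlaps TMEM184A over 18.1% of its exons. The MAFK call at 100 µM was lost without control replicate 1 or 3 or 100 µM replicate 1 or 3 (adjusted p between 0.055 and 0.068). BACH1, a repressor at the same sites, fell by 0.87 ± 0.09 at 100 µM (adjusted p = 0.00017) and rose by 0.53 ± 0.09 at 200 µM (adjusted p = 0.0021). From 100 µM to 200 µM, MAFF rose by 2.10, MAFK by 2.14 and BACH1 by 1.39 on the log2 scale (adjusted p = 1.7e-05, 5.2e-05 and 6.1e-06), beside a median of -0.16 for the proteasome members.

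**Figure D4:**
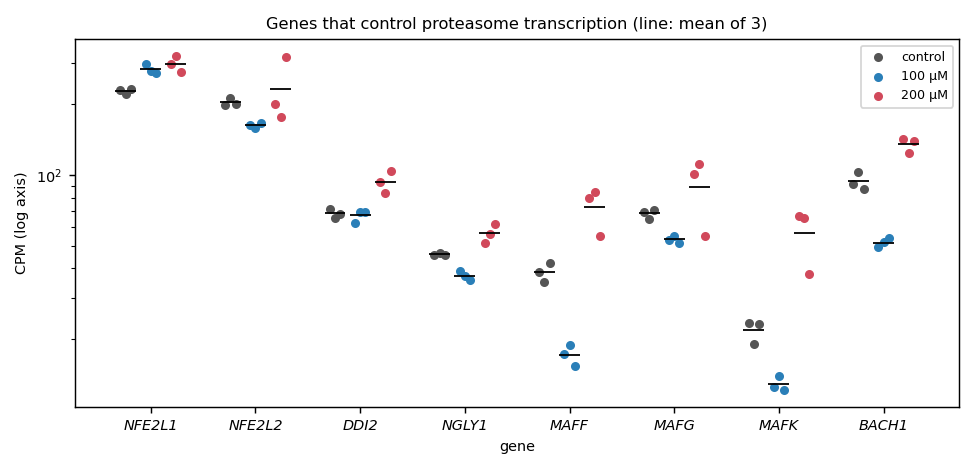
CPM on a log axis of 8 genes listed as regulators of proteasome transcription in each library, with control in grey, 100 µM in blue and 200 µM in red, and a line at each mean of 3 libraries. MAFF, MAFK and BACH1 lie below control at 100 µM and above it at 200 µM, whereas NFE2L1 lies above control at both doses.

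Proteins that work with the proteasome without being named as subunits were counted from another list. Of 16 such factors, 2 were called higher and 1 lower at 100 µM, 5 higher and 3 lower at 200 µM, and 4 higher and 3 lower between the doses. Over all genes 37.1% were called at 100 µM, 37.3% at 200 µM and 44.4% between the doses. After a GC correction the counts were 5 higher and 3 lower at 100 µM (19.9% and 19% of all genes) and 8 higher and 2 lower at 200 µM (24.5% and 23%). After a GC and length correction they were 3 higher and 0 lower (16.2% and 16.5%), and 9 higher and 2 lower (23.6% and 22.3%). Without control replicate 1 or 2, 3 were called higher at 200 µM (14.3% and 14.4% of all genes), and without 200 µM replicate 3, 4 were called lower at 100 µM (27.5%). At 100 µM 1 was called higher without any 1 control library or 100 µM replicate 1 or 3 (13% to 15%). ZFAND2A, a proteasome adaptor induced by arsenite and heat, had 24.1, 23.0 and 23.8 CPM in control, 16.8, 14.1 and 16.9 CPM at 100 µM, and 41.2, 46.6 and 54.1 CPM at 200 µM. Its groups did not overlap: it fell by 0.57 ± 0.12 on the log2 scale at 100 µM (edgeR adjusted p = 0.0058) and rose by 1.00 ± 0.12 at 200 µM (adjusted p = 0.00026). SEM1, a small lid subunit outside the naming rule, had 147, 130 and 143 CPM in control, 108, 124 and 122 CPM at 100 µM, and 93.2, 102 and 77.2 CPM at 200 µM, with every treated library below control. SEM1 fell by 0.62 ± 0.11 on the log2 scale at 200 µM (adjusted p = 0.0026), and its value at 100 µM was -0.24 ± 0.11 (adjusted p = 0.12). After a GC correction the values at 200 µM and 100 µM were -0.13 and 0.37, neither called.

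Of 15 genes for ubiquitin, its activating enzymes and its shuttles, 4 were called higher and 5 lower at 100 µM, 4 higher and 1 lower at 200 µM, and 5 higher and 2 lower between the doses, where the shares of all genes called were 37.1%, 37.3% and 44.4%. Without 200 µM replicate 3 the counts at 200 µM were 8 higher and 2 lower (27.9% and 25.9% of all genes), and 4 were called lower between the doses (28.3%). Each other fit that left out 1 library, except the one without 200 µM replicate 2, called 2 higher at 200 µM (14.3% to 18%). The fit without 200 µM replicate 2 called 2 lower (17.6%). At 100 µM 2 were called higher without control replicate 1 or 2 or any 1 of the 100 µM libraries (13% to 15%), and 3 lower without control replicate 1 or 2 or 100 µM replicate 2 or 3 (11.4% to 12.4%). SQSTM1, the p62 receptor that brings ubiquitin-tagged cargo to autophagy, had 422, 348 and 431 CPM in control, 137, 170 and 131 CPM at 100 µM, and 1596, 1759 and 1266 CPM at 200 µM. The groups lay far apart, lowest at 100 µM and highest at 200 µM. SQSTM1 fell by 1.46 ± 0.15 on the log2 scale at 100 µM (edgeR adjusted p = 0.00014) and rose by 1.94 ± 0.15 at 200 µM (adjusted p = 2.6e-05), and it overlaps MRNIP over 22% of its exons.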

How the data were processed

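The data are 9 A375 libraries of mRNA sequencing. The count table, deposited by the authors, holds whole-number counts per gene without normalization. Per the submitters' processing notes, HISAT2, featureCounts and DESeq2 were run and the build was GRCh38; their versions, the annotation release and the use of strand are not stated there. A further table of 100 features was deposited by the authors and is read as FPKM from its values: the transcript length these imply had a median of 1.05 times the annotated length over 98 features. The 2142 assembled transcripts of the count table, 1.25% to 1.41% of a library's counts, were left out.

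Tests used edgeR 4.0.16 (R 4.3.3): filterByExpr, TMM scaling and a robust quasi-likelihood fit of all 9 libraries by group, which left 6 residual degrees of freedom, with Benjamini-Hochberg adjustment over 13968 genes in each of 3 comparisons. CPM values use TMM-scaled library sizes, and TPM and overlaps use GENCODE v29 transcripts. The fit was tested on simulated data. In 20 alternative settings, DESeq2 1.42.0, other scalings and filters, corrections for GC content and length (splines with 5 degrees of freedom), a replicate block and single-library omissions were tried.

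The members and gene lists were chosen with earlier results of these data known. Values in every library are given for PSMB3, the active-site subunits, POMP, PSME1, PSME2, the 5 largest called changes in each direction at each dose and, in each role, the largest change at 200 µM. No 2 libraries of a group agreed within sampling noise.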

Additional observations from a re-analysis of the deposited data

How the results depend on the processing

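Named genes kept their direction and their side of the threshold in 1392 of 1580 comparisons of a fold change with its value under an alternative, lost the call in 99, gained one in 56 and changed sign in 33; the causes were not tested. Depth limits PSMB3 at 200 µM, which rests on 5 to 15 reads per library.

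The count of members called changed most. At 100 µM, 3 members were called higher in the reported fit, 6 with total counts, 5 with DESeq2, 11 when only the 2 groups compared were fitted, 7 after a GC correction and 12 after a GC and length correction. The shares of all genes called higher were, in that order, 18.9%, 21.1%, 21.1%, 29.8%, 19.9% and 16.2%. The 11 called lower (18.2% of all genes) became 23 with only the 2 groups (31.4%) and 5 after a GC and length correction (16.5%), and all genes called rose from 5181 to 8417 with only the 2 groups. At 200 µM, the 3 called higher (19.8% of all genes) became 5 with DESeq2 (22.5%). The 17 called lower (17.5%) became 8 with only the 2 groups (12.8%) and 11 after a GC and length correction (22.3%). Between the doses, the 2 called higher (22.4% of all genes) became 4 with DESeq2 (24.7%) and 4 after a GC correction (26.4%). The 13 called lower (21.9%) became 5 with only the 2 groups (17.3%) and 20 after a GC and length correction (26%). The summed level at 100 µM was 94.4% of control with total counts and 95.5% per length.

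Leaving out 1 library at a time gave 2 to 11 members higher and 6 to 22 lower at 100 µM (3469 to 7943 of all genes called), 1 to 6 higher and 8 to 22 lower at 200 µM (3719 to 7614), and 1 to 7 higher and 5 to 18 lower between the doses (4813 to 7668).

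These values changed sign, all on the log2 scale. With a GC correction, at 100 µM, POMP was 0.25, PSMC6 0.10, DDI2 0.14 and SEM1 0.37, and at 200 µM POMP was 0.21. With a GC and length correction, at 100 µM, POMP was 0.68, PSMA2 0.31, PSMA6 0.09, PSMB5 0.17, PSMC6 0.31, PSMD4 0.10, SEM1 0.80 and NFE2L1 -0.05, and at 200 µM POMP was 0.48, PSMB6 0.11 and SEM1 0.14. With total counts, at 100 µM, PSMB5 was 0.03, PSMD4 0.01, PSME2 0.02 and DDI2 0.04. PSMB6 at 200 µM was 0.00 with RLE size factors and with DESeq2. Over the fits that left out 1 library, values at 200 µM ranged from -0.13 to 0.17 for PSMB6, from -0.17 to 0.12 for PSMD2 and from -0.33 to 0.11 for PSMG3, each highest without 200 µM replicate 3. At 100 µM they ranged from -0.06 to 0.02 for PSMB5 and from -0.06 to 0.02 for DDI2, which was 0.00 without control replicate 1.

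Replicate numbers did not pair the libraries: correlations of same-numbered libraries lay between -0.132 and 0.02. In both other groups at once, 0 of 9 libraries correlated best with their own number. With the replicate block, 3 members were called higher and 10 lower at 100 µM, 2 and 13 at 200 µM, and 2 and 10 between the doses, and 4 and 9, 3 and 19, and 3 and 13 with the block and a GC correction. The shares of all genes were 15.8% and 14.7%, 16.6% and 14.7%, and 19.4% and 19.3% with the block. They were 17.7% and 17%, 22.5% and 21.2%, and 24.6% and 24.8% with the GC correction added. With the block and a GC correction, POMP was 0.24 and 0.14 at 100 µM and 200 µM, and PSMC6 was 0.09, DDI2 0.14 and SEM1 0.36 at 100 µM.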
